A study of Mus musculus with 15 samples.

Results

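Gluconeogenesis is the making of glucose from lactate, glutamine and other carbon that is not sugar. Liver and kidney are the organs that release such glucose into the blood, and in the kidney the work is done in the proximal tubule. The fetus draws its glucose from the mother, so birth is the time at which the newborn has to supply its own. The same tubule segment takes up fructose and phosphorylates it, and breaks down myo-inositol to glucuronate. The genes described here cover these 3 routes. Pyruvate carboxylase (Pcx), the cytosolic and mitochondrial phosphoenolpyruvate carboxykinases (Pck1, Pck2), the fructose bisphosphatases (Fbp1, Fbp2), the catalytic subunit of glucose-6-phosphatase (G6pc) and the carrier that brings glucose-6-phosphate to it (Slc37a4) belong to gluconeogenesis. Ketohexokinase (Khk) opens fructose breakdown, and myo-inositol oxygenase (Miox) opens inositol breakdown. They were chosen by symbol, 9 genes with 10 probes among the 15967 genes that have a named probe. The brightest probe of each gene was used, and the other Khk probe served as a check. Of the 9 genes, 8 passed the filter on dim probes and were tested among 9531 genes; Pck2 did not.

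The data are 15 Illumina MouseRef-8 bead arrays of RNA from whole kidneys of untreated BALB/c mice, with 5 arrays from each of 3 ages: embryonic day 16 (E16d), postnatal day 1 (PN1d) and postnatal day 7 (PN7d). The study's methods describe the embryos as male, and leave it unclear whether this covers the postnatal mice. The methods call the arrays biological triplicates, whereas the study's results give 5 for each age and the labels number 5 replicates at each age. None of these says whether an array holds 1 animal or a pool, so a p-value covers only the spread among these samples. Values are the authors' normalized intensities on the log2 scale, on which 1 unit is a doubling. The median of all values, 6.22, served as the line for a dim probe; a value that does not exceed it is called dim here. Because each array holds RNA of a whole organ, more cells of a type and more RNA per cell cannot be told apart. The change up to PN1d also spans late gestation and birth together.

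The arrays were checked against markers of the kidney tubule and of tissues that lie beside or inside the kidney. For comparison, 21.4% of all 9531 genes tested were called higher at PN1d than at E16d. With each array left out in turn, 2173 to 2432 of all genes were called lower at PN1d than at E16d. The marker counts were not tested against these backgrounds. Of 12 proximal tubule markers tested, 11 were higher at PN1d than at E16d, and their summed intensity ran between 6748 and 8368 on the E16d arrays, 20260 and 24018 on the PN1d arrays, and 28116 and 34683 on the PN7d arrays. Slc34a1, the phosphate carrier of this segment, was the brightest of them at each age. PN7d replicate 4 had the lowest sum of its age, and Slc5a2, the glucose carrier of the early proximal tubule, read 6.42 there against 9.65 to 10.17 on the other PN7d arrays. The 13 liver markers summed to 10379 on PN1d replicate 2, led by Apoa2 and Fga, against 1226 to 2368 on the other PN1d arrays and 1026 to 1239 on the E16d arrays. Across the age, 6 of 7 liver markers tested were higher at PN1d than at E16d (median change 1.39, replicate 2 included). On the other PN1d arrays Fga read 7.40 to 8.77, against 6.26 to 6.68 at E16d, and Apoa1 and Hp also stayed above their E16d values. Ahsg, Trf and Apoa2 overlapped theirs, Ahsg reading 6.31 on PN1d replicate 5 against up to 6.50 at E16d. Of the 13 liver markers Alb, Apoh, Fgb, Otc and Tat were dim on each PN1d array. The 9 fat markers were dim on each E16d and PN1d array, and on the PN7d arrays they summed to between 922 (replicate 2) and 7461 (replicate 1), with Ucp1 of brown fat the brightest. Of these, Fabp4, Retn, Elovl3 and Lep were dim on each PN7d array as well. The 8 muscle markers summed to between 600 and 638 at E16d, 632 and 762 at PN1d, and 554 and 1094 at PN7d. The adrenal list stayed low, with Star at up to 6.53 as the mean of an age. Of 5 red cell markers tested, 3 were lower at PN1d than at E16d (median change of the 5 -1.23), with Hbb-bt at a mean of 7.20 at PN1d against 10.87 at E16d, while Hba-a1 read between 13.55 and 13.66 as the mean of an age. The part of these tissues in the results was not tested beyond the values given beside them.

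The promoters of 4 genes are shown because these genes span the timings described later: G6pc made nearly all of its log2 change by PN1d, Pck1 and Miox rose both before and after it, and Khk made most of its change after it. Each is the stretch of 250 bases before the annotated start, from RefSeq's annotation of build GRCm38.p6, read 5′ to 3′ on the gene's own strand, which is the plus strand for all of them. Capitals mark matches, on either strand, to the letters searched: TATAAA (the TATA box), TTACGTCA (a variant of the cAMP response element), GTTAAT (the HNF1 half-site) and AGGTCA (a nuclear receptor half-site).
G6pc, chr11:101367466-101367715: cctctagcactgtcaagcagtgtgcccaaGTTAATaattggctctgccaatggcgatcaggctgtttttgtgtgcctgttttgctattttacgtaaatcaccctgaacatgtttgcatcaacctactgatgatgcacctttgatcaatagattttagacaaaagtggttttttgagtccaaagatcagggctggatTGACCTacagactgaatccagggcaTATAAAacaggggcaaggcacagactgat
Pck1, chr2:173152823-173153072: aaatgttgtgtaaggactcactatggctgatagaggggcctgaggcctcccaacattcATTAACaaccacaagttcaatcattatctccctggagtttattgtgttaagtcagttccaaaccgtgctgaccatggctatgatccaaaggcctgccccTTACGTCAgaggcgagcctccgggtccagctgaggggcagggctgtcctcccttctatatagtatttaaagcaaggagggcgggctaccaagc
Khk, chr5:30921309-30921558: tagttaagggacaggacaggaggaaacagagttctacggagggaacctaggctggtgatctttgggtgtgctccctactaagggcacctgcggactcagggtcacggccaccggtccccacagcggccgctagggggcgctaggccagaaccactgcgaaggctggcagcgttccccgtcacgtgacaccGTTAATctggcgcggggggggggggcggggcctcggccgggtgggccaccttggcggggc
Miox, chr15:89334223-89334472: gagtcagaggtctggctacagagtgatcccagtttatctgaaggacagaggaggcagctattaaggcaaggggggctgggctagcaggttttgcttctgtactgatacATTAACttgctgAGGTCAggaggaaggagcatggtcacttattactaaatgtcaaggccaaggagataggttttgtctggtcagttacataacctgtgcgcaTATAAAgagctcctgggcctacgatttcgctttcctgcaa

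The 9 genes have 12 such windows among the 32851 of the annotation. GTTAAT was found in windows of 4 of the genes (G6pc, Khk, Miox and Pck1), which are the ones printed, and in 6.43% of all windows. TATAAA and AGGTCA were each found for G6pc, Miox and Slc37a4, in 12.4% and 14.0% of all windows. For Slc37a4 the TATAAA and the AGGTCA lie in different windows. The members are counted as genes, some with several windows, so their counts do not compare directly with the shares of windows. The letters TTACGTCA occurred for Pck1 alone of the members, between 93 and 86 bases before the start, and in 0.448% of all windows. The full cAMP response element TGACGTCA (1.55% of all windows) and the FOXO core TGTTTAC (3.17%) were in no member's window. The longer motifs can hold none of the shorter ones. A match describes the letters only, and no match says nothing of a factor.

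All 8 tested genes were higher at PN1d than at E16d and higher at PN7d than at E16d. The median log2 change of the 8 was 1.76 at PN1d and 2.25 at PN7d against E16d, where the medians of all tested genes were -0.02 and 0.0016. Of all genes tested, 21.4% were called higher at PN1d and 32.3% at PN7d against E16d (limma, adjusted p under 0.05). For none of the 8 did the arrays of PN1d or PN7d overlap those of E16d, a pattern seen in 17.6% of all genes for higher values at PN1d and in 25.3% at PN7d. The genes parted after PN1d: Miox, Khk, Pck1 and Pcx were higher at PN7d than at PN1d, 4 of 8 where 24.1% of all genes were called higher, and Slc37a4, G6pc, Fbp2 and Fbp1 did not pass the test. Being higher in both steps was a feature of 8.44% of all genes.

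**Figure D1:**
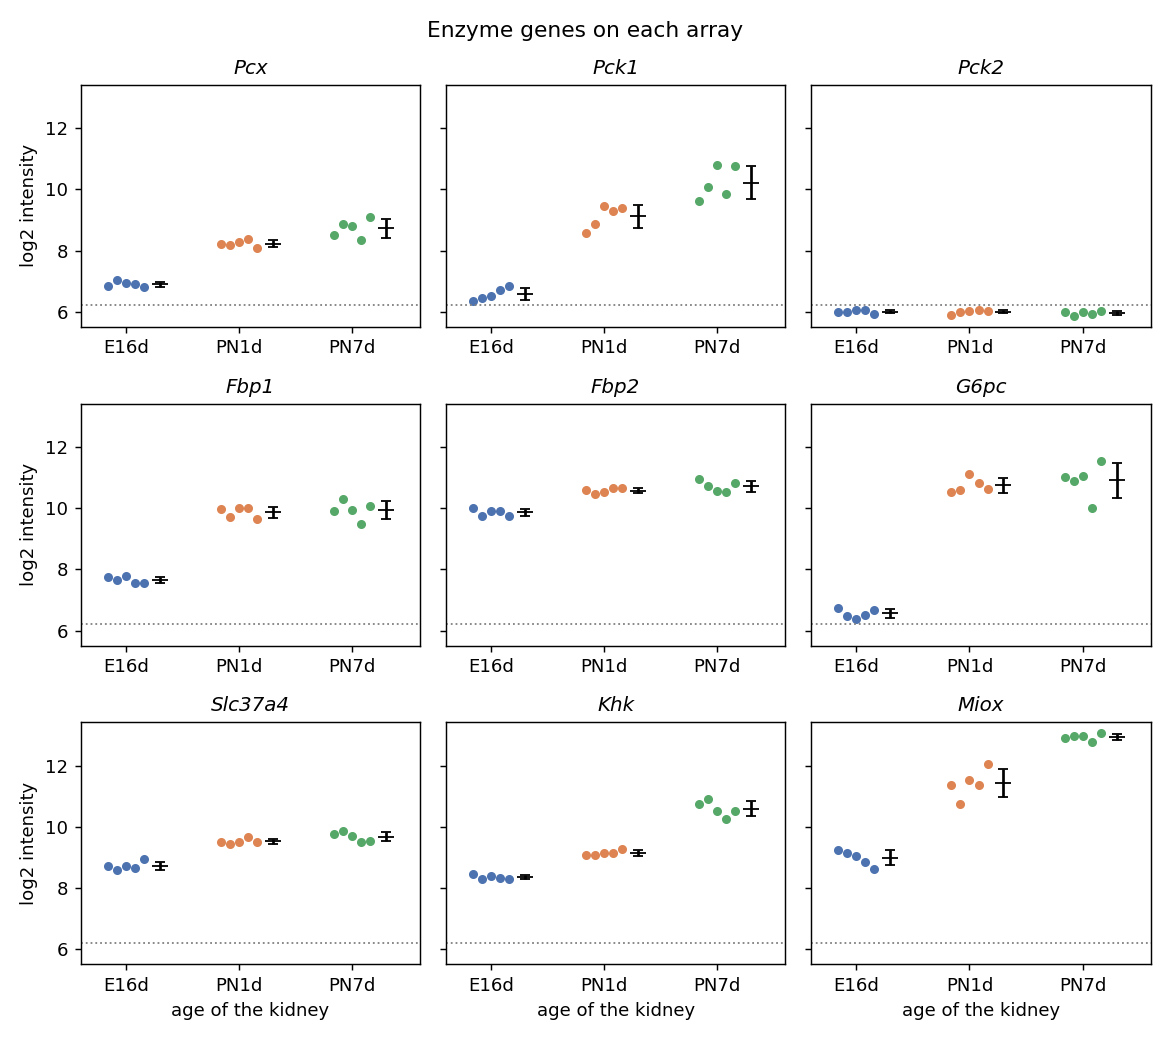
Log2 intensity (vertical axis) of the 9 enzyme genes on each array at E16d, PN1d and PN7d (coloured points, replicates 1 to 5 from left to right), with the mean and SD of each age (black) and the median of all values (dotted line, 6.22). The 8 tested genes sit higher on each PN1d and PN7d array than on any E16d array, and Pck2 stays under the dotted line at all ages.

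The gluconeogenic chain starts with Pcx, which turns pyruvate into oxaloacetate inside the mitochondrion. Pcx read 6.86, 7.03, 6.95, 6.91 and 6.81 on the E16d arrays, 8.22, 8.19, 8.27, 8.38 and 8.08 on the PN1d arrays, and 8.50, 8.88, 8.82, 8.34 and 9.10 on the PN7d arrays. The 3 ages lay in order, apart from PN7d replicate 4, which was below PN1d replicate 4. The change from E16d was 1.31 ± 0.11 (log2, SE) at PN1d, a 2.49-fold higher intensity (adjusted p = 1.05e-07). Pcx went on to be higher by 0.50 ± 0.11 at PN7d than at PN1d (adjusted p = 0.00158), with overlapping arrays.

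Pck1 converts oxaloacetate to phosphoenolpyruvate in the cytosol and is the classical control point of the pathway. It read 6.35, 6.47, 6.52, 6.72 and 6.84 on the E16d arrays, just above the line for a dim probe. On the PN1d arrays it read 8.57, 8.87, 9.47, 9.30 and 9.39, and on the PN7d arrays 9.61, 10.08, 10.81, 9.84 and 10.77. The ages did not overlap at all, although the arrays of PN7d were spread over more than 1 log2 unit. Pck1 was 5.83-fold higher at PN1d than at E16d (2.54 ± 0.22, adjusted p = 1.45e-07), and it ranked 8 from the top of all 9531 genes in that comparison. It rose again by 1.10 ± 0.22 at PN7d over PN1d (2.14-fold, adjusted p = 0.000772), a difference that 14.4% of all genes also showed without overlap of their arrays, as did Khk and Miox.

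Pck1 and Pcx are also made in fat cells, and some of the fat markers rose above the line for a dim probe at PN7d. The PN7d arrays with the brightest Ucp1, replicate 1 at 12.17 and replicate 4 at 11.71, were those with the lowest Pck1 and the lowest Pcx of that age. Replicate 2, with the lowest Ucp1 (8.07), read 10.08 for Pck1 and 8.88 for Pcx. A fat marker level was taken from Ucp1, Cidea, Cox8b and Adipoq, the fat markers that passed the filter on dim probes. With this level as a covariate, Pck1 was higher by 1.56 at PN7d than at PN1d (limma, adjusted p = 0.0419). The level was 5.90 to 5.99 on all E16d and PN1d arrays and higher on each PN7d array, so it runs nearly with age. The part of fat in the Pck1 and Pcx values was not tested.

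Pck2 makes phosphoenolpyruvate inside the mitochondrion. Its single probe read 5.95 to 6.08 on the E16d arrays, 5.92 to 6.07 on the PN1d arrays and 5.88 to 6.04 on the PN7d arrays. All 15 values were dim, so no fold is given. In a fit without the filter Pck2 passed the test in none of the comparisons between ages (adjusted p = 0.949 for PN1d against E16d, 0.497 for PN7d against E16d and 0.617 for PN7d against PN1d). The values bound only what this probe could show.

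Fbp1, the fructose bisphosphatase of liver and kidney, removes a phosphate from fructose-1,6-bisphosphate and so passes the step that glycolysis cannot reverse. It read 7.76, 7.66, 7.78, 7.57 and 7.55 on the E16d arrays, 9.96, 9.72, 10.00, 10.01 and 9.64 on the PN1d arrays, and 9.90, 10.29, 9.95, 9.48 and 10.08 on the PN7d arrays. All postnatal arrays stood well above the E16d arrays, and those of PN1d and PN7d ran through each other. The change from E16d was 2.20 ± 0.12 at PN1d (4.60-fold, adjusted p = 1.29e-09). The difference of PN7d from PN1d was 0.08 ± 0.12 (95% interval -0.18 to 0.33, adjusted p = 0.634).

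Fbp2 is known as the isoform of muscle. Its intensities changed less, at 9.74 to 10.01 on the E16d arrays, 10.46 to 10.66 on the PN1d arrays and 10.52 to 10.94 on the PN7d arrays. It was higher by 0.71 ± 0.08 at PN1d than at E16d (1.64-fold, adjusted p = 1.96e-06), the smallest change of the 8 genes, and by 0.14 ± 0.08 at PN7d over PN1d (interval -0.03 to 0.31, adjusted p = 0.157). Of 8 muscle markers Ckm, Myh8 and Myl1 were dim on all 15 arrays. Acta1, the brightest at PN7d, was higher at PN7d than at E16d by 1.11 (adjusted p = 0.0199). It read 8.87 on PN7d replicate 1 and 7.95 on replicate 3 against 6.23 to 7.02 on the other PN7d arrays. Of 5 muscle markers tested, Acta1 alone was higher at PN7d than at E16d. Actn3 changed by -0.32 (adjusted p = 2.69e-06), and Tnnc2, Tnni2 and Tnnt3 did not pass the test. PN7d replicate 1 had both the highest muscle sum (1094) and the highest Fbp2 (10.94), while replicate 5, with the lowest muscle sum of that age (554), read 10.83 for Fbp2. The part of muscle in the Fbp2 values was not tested. Older names of the mouse genes cross, Fbp1 having been called Fbp2 and the reverse, so the probes are assigned here by the platform's gene numbers.

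G6pc carries out the last step, which frees glucose in the endoplasmic reticulum. It read 6.76, 6.48, 6.38, 6.51 and 6.68 on the E16d arrays, 10.54, 10.60, 11.12, 10.81 and 10.63 on the PN1d arrays, and 11.02, 10.88, 11.06, 10.01 and 11.55 on the PN7d arrays. Nothing lay between the low E16d values and the bright postnatal ones. The change from E16d was 4.18 ± 0.20 at PN1d (18.1-fold, adjusted p = 3.34e-10), the largest among the members and 3 from the top of all 9531 genes. PN1d replicate 2, the array with the liver markers, read 10.60, which is within the range of the other PN1d arrays. Without that array and without PN7d replicate 4, a choice made after seeing the data, the change was 4.21. With the liver marker level as a covariate it was 4.23, and all 8 genes were still higher at PN1d than at E16d. That level was 9.64 on PN1d replicate 2, 6.56 to 7.51 on the other PN1d arrays and 6.30 to 6.58 at E16d. The adjustment therefore rests largely on 1 array, and the part of liver in the values was not tested. A normexp background correction of the deposited values gave 28.5-fold for G6pc at PN1d and 31.9-fold at PN7d, each over E16d.

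G6pc was higher at PN7d than at PN1d by 0.16 ± 0.20 (interval -0.26 to 0.58, adjusted p = 0.537). That result turned on 1 array. PN7d replicate 4 read 10.01, lower than any PN1d array, and without it the difference was 0.38 (adjusted p = 0.0307). With PN1d replicate 2 left out as well it was 0.35 (adjusted p = 0.0658).

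Slc37a4 moves glucose-6-phosphate into the endoplasmic reticulum, where G6pc acts on it. It read 8.60 to 8.95 on the E16d arrays, 9.45 to 9.66 on the PN1d arrays and 9.51 to 9.87 on the PN7d arrays. Like G6pc, the carrier had most of its change by PN1d, but a smaller one: 0.80 ± 0.08 at PN1d over E16d (1.75-fold, adjusted p = 3.58e-07). The difference of PN7d from PN1d was 0.15 ± 0.08 (interval -0.01 to 0.31, adjusted p = 0.127).

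Khk phosphorylates fructose and thereby commits it to breakdown. Its brightest probe read 8.47, 8.31, 8.39, 8.33 and 8.31 on the E16d arrays, 9.08, 9.07, 9.15, 9.15 and 9.28 on the PN1d arrays, and 10.75, 10.90, 10.53, 10.27 and 10.52 on the PN7d arrays. The arrays of an age lay close together, and the wide gap was the one between PN1d and PN7d. Khk was 1.72-fold higher at PN1d than at E16d (0.78 ± 0.09, adjusted p = 2.85e-06) and 2.73-fold higher at PN7d than at PN1d (1.45 ± 0.09, adjusted p = 4.82e-09). The other probe, lower throughout, read 7.07 to 7.32 at E16d, 7.65 to 7.94 at PN1d and 8.71 to 9.25 at PN7d. It gave changes of 0.65 at PN1d over E16d and 1.14 at PN7d over PN1d, so both probes put the larger change in the first week.

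Miox opens the inositol ring and is best known as an enzyme of the kidney tubule. It read 9.25, 9.15, 9.06, 8.87 and 8.62 on the E16d arrays, 11.38, 10.76, 11.54, 11.36 and 12.05 on the PN1d arrays, and 12.90, 12.97, 12.96, 12.77 and 13.05 on the PN7d arrays. The 3 ages were well apart, with a wide spread at PN1d and a narrow one at PN7d. Miox was 5.38-fold higher at PN1d than at E16d (2.43 ± 0.17, adjusted p = 1.64e-08) and 2.85-fold higher at PN7d than at PN1d (1.51 ± 0.17, adjusted p = 3.32e-06). Over the whole span its intensity was 15.4-fold higher at PN7d than at E16d, beside 20.3-fold for G6pc and 12.5-fold for Pck1 (19.4-fold for Pck1 with the normexp correction). The lowest PN1d value, 10.76, was that of replicate 2, the array with the liver markers.

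**Figure D2:**
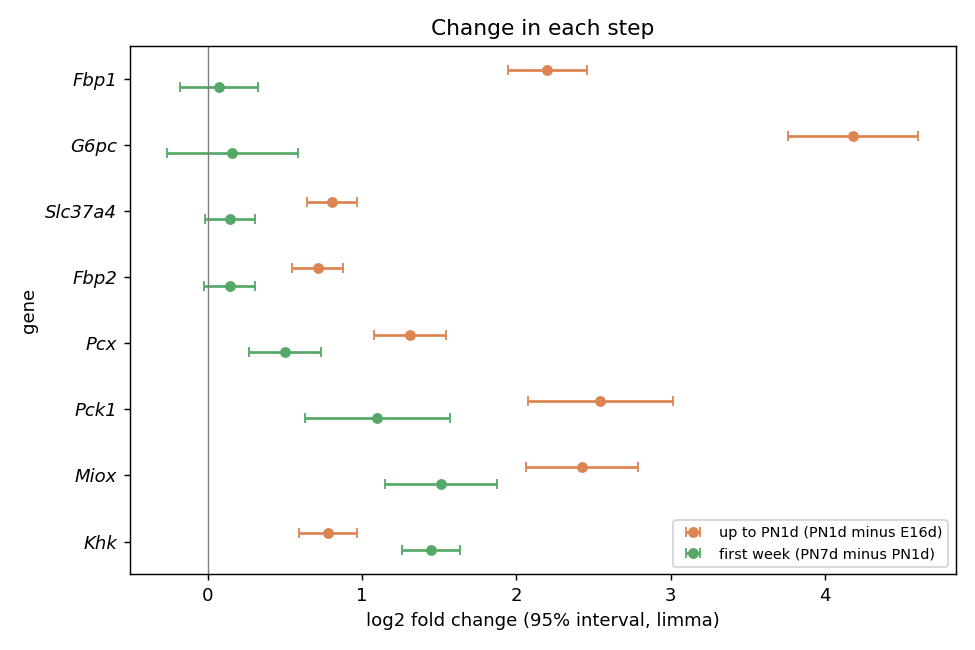
Log2 fold change (horizontal axis, limma estimate with its 95% interval) of each tested gene up to PN1d (PN1d minus E16d, orange) and in the first week (PN7d minus PN1d, green). The green interval includes 0 for Fbp1, G6pc, Slc37a4 and Fbp2, and only Khk has its green point to the right of its orange one.

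The first-week change was subtracted, with its sign, from the change up to PN1d. The same fit was used, which takes into account that both use the PN1d arrays. All 8 genes had positive estimates for both changes, and the change up to PN1d was the larger for 7 of them and the smaller for Khk. Of all genes, 12.5% were called with a positive difference and 14.9% with a negative one. Over all genes the sign does not give the larger change, because a gene that fell only in the first week also has a positive difference. The difference between the changes was 4.02 ± 0.35 for G6pc (adjusted p = 4.60e-07) and 2.13 ± 0.21 for Fbp1 (adjusted p = 1.79e-06). For Pck1 it was 1.44 ± 0.38 (adjusted p = 0.0104). For Pcx, Slc37a4 and Fbp2 it lay between 0.57 and 0.81 (adjusted p between 0.00159 and 0.00549). Khk ran the other way at -0.67 ± 0.16 (adjusted p = 0.00447), and its other probe at -0.49 (adjusted p = 0.0273). For Miox the difference of 0.92 ± 0.30 (adjusted p = 0.0306) was close to the threshold, and leaving out PN1d replicate 1, 3, 4 or 5 gave adjusted p-values of 0.0526, 0.0741, 0.0539 and 0.0936. With the fat marker level as a covariate G6pc, Fbp1 and Fbp2 kept the call and Pck1, Pcx, Slc37a4 and Miox did not (adjusted p = 0.289, 0.329, 0.143 and 0.288), and with the liver marker level Khk did not (adjusted p = 0.061).

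The share of the log2 change between E16d and PN7d that was reached at PN1d orders the genes. Fbp1 had made 96.7% of it and G6pc 96.3%. Slc37a4 (84.5%) and Fbp2 (83.4%) came next, followed by Pcx (72.4%), Pck1 (69.8%) and Miox (61.6%), and Khk was last at 35.0%. When each array was left out in turn, the ranges of Fbp1 and G6pc, which start at 92.0% and 91.6%, overlapped nearly completely, as did those of Slc37a4 and Fbp2. Those of Pcx (68.7% to 76.3%) and Pck1 (67.0% to 73.6%) also overlapped, so the order within these pairs is not settled. The ranges of Miox (57.6% to 65.8%) and Khk (33.5% to 36.2%) each met no other. On linear intensities, a scale added after seeing the data, the order was the same and the spread wider: 92.3% for Fbp1 and 84.9% for G6pc, but 40.8% for Pck1, 31.9% for Miox and 19.2% for Khk. In terms of intensity, then, Pck1 and Miox gained more after PN1d than before it, and in terms of log2 change less.

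**Figure D3:**
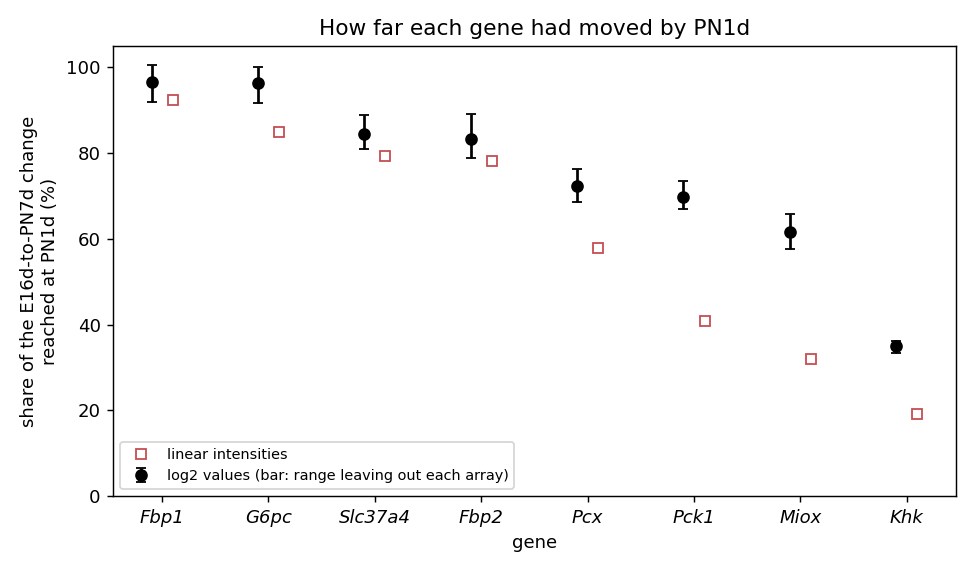
Share of the E16d-to-PN7d change that each tested gene had reached at PN1d (percent, vertical axis), from log2 values (filled points, bars spanning the values with each array left out) and from linear intensities (open squares). Shares on log2 values run between 96.7% for Fbp1 and 35.0% for Khk, and the squares lie lower for each gene.

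The genes also differed in how much the arrays of an age varied. At PN7d the SD of G6pc was 0.56 and that of Pck1 0.54 on the log2 scale, above those of 99.4% of all tested genes, where the median gene had 0.12. At PN1d Miox had an SD of 0.46, above 99.1% of genes, but at PN7d only 0.10, above 38.7%. Khk, Fbp2 and Slc37a4 had SDs of 0.08 to 0.09 at PN1d, under the median gene's 0.10.

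PN7d replicate 4 was the lowest array of its age for 7 of the 8 genes, all but Pck1, for which replicate 1 was lower. Over all genes it was the lowest of its age for 21.9%. The members deviated from their PN7d means by a median of -0.35 on that array and all genes by -0.01. The deviation was -0.89 for G6pc, -0.47 for Fbp1, -0.39 for Pcx and -0.32 for Khk, against -0.16 for Miox. This is the array with the lowest proximal tubule sum of its age and the low Slc5a2. On PN1d replicate 2, which carried the liver markers, all 8 members lay below their PN1d means, with a median deviation of -0.13. Without both arrays, a choice made after seeing the data, 8 members were higher at PN1d than at E16d and 4 higher at PN7d than at PN1d, as before.

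**Figure D4:**
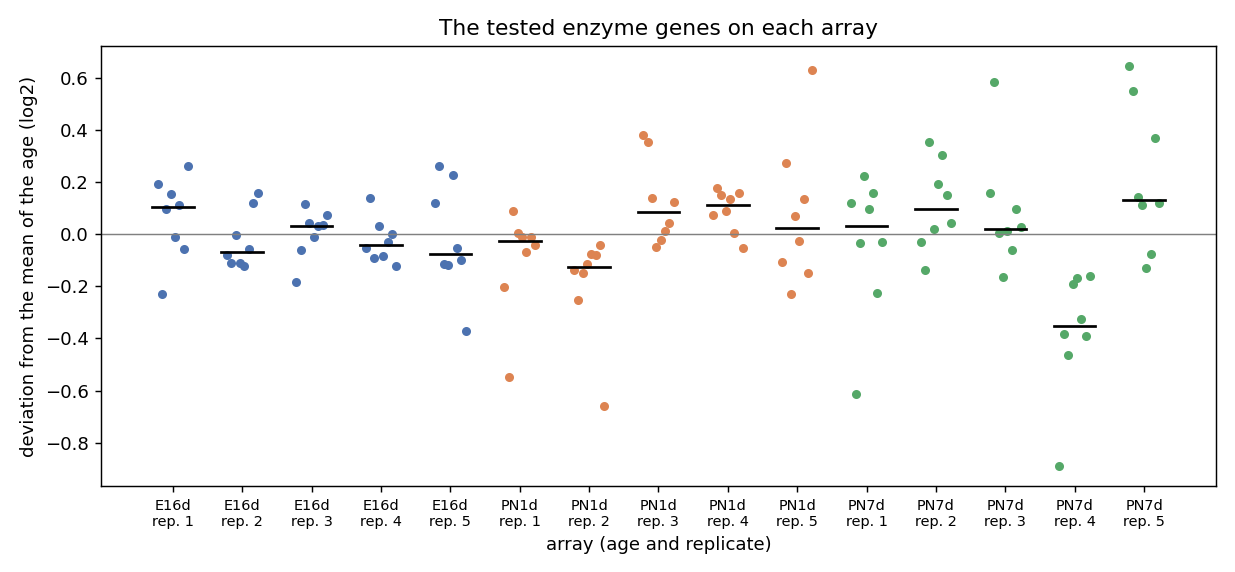
Deviation of each of the 8 tested genes (points) from its mean at the same age on the log2 scale (vertical axis), for each array (horizontal axis), with the median of the 8 as a black bar. On PN7d replicate 4 all points lie below 0 with a median of -0.35, and on PN1d replicate 2 all lie below 0 with a median of -0.13.

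Across the 15 arrays the members were correlated with each other, with Pearson's r between 0.78 (G6pc and Khk) and 0.989 (G6pc and Fbp1). These values, like those that follow, are descriptions: the arrays share 3 ages, and any gene that rose after E16d correlates with them. The genes most like G6pc over the arrays were Car15, a carbonic anhydrase (r = 0.991), Fbp1 and Slc17a1, a phosphate and urate carrier of the proximal tubule. For Fbp1 they were Ttc36, G6pc and Car15, for Pck1 Agtr1a (an angiotensin receptor), Cdhr5 and Tmem174, and for Pcx H6pd (r = 0.991), Sgpp1 and Aldh6a1. Those of Fbp2 were Cela1, Pafah2 and Grhpr, and those of Slc37a4 were Cryl1, Dpep1 and Renbp. Miox was most like Acss1 (r = 0.993), the phosphate carrier Slc34a1 and Sfrp1. Khk stood with another set, Slc26a4 (r = 0.993), Marchf10 and Enpp6; Slc26a4, the anion exchanger pendrin, is known from intercalated cells of the collecting duct. Like Khk, these 3 changed more after PN1d: Slc26a4 by 0.82 up to PN1d and 1.26 in the first week, Enpp6 by 1.15 and 1.65. That timing was also seen in the proximal tubule list, where Slc5a2 changed by 0.08 and 3.24. Of the 12 proximal tubule markers tested, 7 were called with the larger change up to PN1d, and 4 did not pass the test.

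Genes of the neighbouring steps moved less uniformly. Of all 9531 genes tested, 21.4% were called higher at PN1d and 32.3% at PN7d, each against E16d. With each array left out in turn, 2173 to 2432 of all genes were called lower at PN1d, and 2953 to 3080 at PN7d. Whether the counts of the lists below differ from these backgrounds was not tested. Of 22 genes of gluconeogenesis and the steps it shares with glycolysis, 15 were tested, and 10 were higher at PN1d than at E16d, the others not passing the test (median log2 change 0.24). At PN7d against E16d 6 were higher and 2 lower (median 0.11). The dicarboxylate carrier Slc25a10 changed most, by 1.02 at PN1d and 1.63 at PN7d over E16d (adjusted p = 8.06e-08 and 7.32e-11). Aldolase A (Aldoa) changed by 0.88 at PN1d and by 0.47 at PN7d, and the glycerol phosphate dehydrogenase Gpd1 by 0.29 and 0.89. The lactate dehydrogenase Ldhb changed by 0.48 at PN7d and Ldha by -0.33, each against E16d. G6pc3, the widely expressed relative of G6pc, changed by -0.24 at PN7d (adjusted p = 0.0111).

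In fructose and sorbitol metabolism 5 of 8 genes were tested, of which 4 were higher at PN1d and 5 at PN7d than at E16d (medians 0.62 and 1.01). Slc5a10, a sodium-coupled carrier of mannose and fructose in the kidney, changed by 2.27 at PN1d and 2.71 at PN7d over E16d. Its change up to PN1d exceeded its first-week change by 1.83 (adjusted p = 0.000477), a difference opposite in sign to that of Khk. Slc2a5, the fructose carrier of gut and tubule, changed by 0.62 at PN1d and 1.01 at PN7d. Tkfc, which phosphorylates the glyceraldehyde released from fructose, was higher by 0.69 and 1.19.

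For inositol and glucuronate 8 of 14 genes were tested, 4 higher and 1 lower at PN1d, and 4 higher and 2 lower at PN7d, against E16d (medians 0.45 and 0.51). The enzymes that carry the product of Miox on towards xylulose phosphate were among those higher: Cryl1 by 1.52 at PN1d and 1.90 at PN7d, Dcxr by 0.90 and 1.57, and Xylb by 1.18 and 1.88. All 3 rose again in the first week, by 0.38 to 0.70. Inpp1, an inositol polyphosphate phosphatase, changed by -0.35 at PN1d, and Ippk, a kinase that makes the most phosphorylated inositol, by -0.33 at PN7d.

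Of the genes that turn glutamine into glucose precursors, 7 of 10 were tested, and 5 were higher at PN1d and 5 at PN7d than at E16d, Suclg1 being in the PN1d count only and Idh3a in the PN7d count only (medians 0.57 and 0.46). Slc1a1, a glutamate carrier, changed by 1.59 at PN1d and 2.18 at PN7d. Glutamate dehydrogenase (Glud1) was higher by 0.62 and 0.79, Ogdh of the citric acid cycle by 0.57 and 0.80, and the glutamine carrier Slc38a3 by 0.70 and 0.46.

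The list for the committed steps of glycolysis, which run against gluconeogenesis, gave both directions. It also holds the pyruvate dehydrogenase kinases Pdk1, Pdk2 and Pdk4, which are not steps of glycolysis. These kinases are among the genes counted as higher at both postnatal ages. Of 14 genes tested of 16, 6 were higher and 1 lower at PN1d and 7 higher and 3 lower at PN7d, against E16d (medians 0.10 and 0.13). Hexokinase 2 (Hk2) changed by -1.41 at PN1d and by -2.15 at PN7d against E16d. Pyruvate kinase M (Pkm) changed by -0.60 at PN7d, and the phosphofructokinase Pfkl by 0.24 at PN1d and -0.37 at PN7d. Other genes of the list went up: Pfkp by 0.55 and Pklr by 0.19 at PN1d over E16d. At PN7d over E16d Pfkfb2 was higher by 0.66, Pfkfb3 by 0.39, Pklr by 0.27 and Pfkm by 0.19. Pklr lay close to the line for a dim probe. The pyruvate dehydrogenase kinases, which keep pyruvate from being oxidised, were higher at PN1d: Pdk4 by 1.75, Pdk1 by 0.70 and Pdk2 by 0.51.

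Of 20 regulators of gluconeogenic genes 11 were tested. Against E16d, 3 were higher and 2 lower at PN1d, and 7 higher and 3 lower at PN7d (medians 0.07 and 0.19). The shares of all genes called higher were 21.4% at PN1d and 32.3% at PN7d. Hnf4a, a nuclear receptor of liver and tubule, changed by 0.50 at PN1d and 0.77 at PN7d, and Cebpb by 0.83 and 0.68. Mlxipl, a carbohydrate-responsive factor, was higher by 1.21 at PN7d than at E16d and by 0.89 at PN7d than at PN1d, while its 0.31 at PN1d over E16d did not pass the test (adjusted p = 0.0715). Cebpd changed by -0.52 at PN1d and -0.95 at PN7d, Foxo1 by -0.21 and -0.16, and Creb1 by -0.17 at PN7d.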

How the data were processed

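Total RNA of whole kidneys was labelled with biotin and hybridised to MouseRef-8 arrays. Intensities were quantile normalized by the authors, and the deposited values are on the log2 scale; that scale was taken from their range, since the labels do not name it. Background correction and software version are not given in the sources used here. A further 30 columns of signals and detection p-values under sample numbers could not be tied to an age and were not used, so detection rests on the median of all values. Age and replicate came from the sample labels.

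Gene names came from the platform's annotation, and the brightest named probe of each gene was taken. A probe entered the test if its mean exceeded the median of all values at 1 or more of the ages (13074 probes, 9531 named genes). The 3 ages were fitted together in limma (version 3.58.1, under R 4.3.3), variances were moderated by empirical Bayes, and p-values were adjusted by Benjamini-Hochberg over all genes tested and called at an adjusted p under 0.05. The fit was tested on simulated data. The number of arrays limits the precision. Named were all 9 genes, up to 3 genes of each pathway list in each direction at PN7d and up to 2 at PN1d, the brightest gene of each marker list, and the 3 genes most correlated with each member. Singled out after their values were seen were Slc5a2, Apoa1, Apoa2, Ahsg, Hp, Trf, Hbb-bt, Suclg1, Idh3a, Pfkp, Pklr, Pfkfb2, Pfkfb3 and Pfkm. So were the tested muscle markers besides Acta1, the undetected markers and the remaining values of single arrays. Members and lists were chosen with earlier results of these data known. Alternatives were the filter, the choice of probe, normexp correction, the variance model, the ages in the fit, a replicate block, the methods' t-test, marker covariates and each array left out. Sequences are from RefSeq (GRCm38.p6).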

Additional observations from a re-analysis of the deposited data

Results flagged for a closer look

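In 45 groups of 5 arrays, covering the 9 genes, the other Khk probe, Slc5a2 and 4 marker sums, the gap of the highest or lowest array to its neighbour was divided by the range of the group. The limit was 0.71, which chance passes in about 1 group in 20, and 5 groups passed it. Slc5a2 and the marker sums had been picked with their values known, so this count is not to be read against the chance rate. No brightest probe of the 9 genes passed. Slc5a2 on PN7d replicate 4 (6.42 against 9.65 to 10.17 on the other PN7d arrays) had a ratio of 0.861. The liver marker sum on PN1d replicate 2 (10379 against 1226 to 2368) had 0.875. The fat marker sum on the same array (554 against 542 to 545), all of it from dim probes, had 0.803. The proximal tubule sum on E16d replicate 5 (6748 against 8046 to 8368) had 0.801; that array was also the lowest of its age for Miox, Fbp1, Fbp2 and Pcx. The other Khk probe on PN1d replicate 4 (7.65 against 7.86 to 7.94) had 0.728, while the brightest Khk probe read 9.15 there, within the range of its age. No cause was tested.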

How the results depend on the processing

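No alternative reversed a result. For the comparisons with E16d all 8 genes stayed higher under each alternative run, and for PN7d against PN1d G6pc without PN7d replicate 4 (5 genes higher in place of 4) was the one call to change. Comparing the change up to PN1d with the first-week change was less firm: 198 of 208 values stayed on their side of the threshold and 10 did not pass it, among them Miox without the filter on dim probes (adjusted p = 0.0572) and the cases given in the report. With the fat marker level as a covariate 3 genes in place of 7 had the larger change up to PN1d, and with the liver marker level 0 in place of 1 had the smaller one; that fat level is 5.90 to 5.99 on all E16d and PN1d arrays and 7.27 to 10.80 at PN7d, so it runs nearly with age. Leaving out single arrays gave 6 to 7 genes with the larger change up to PN1d. Over all genes, the fat covariate gave 1830 higher and 1810 lower at PN7d than at E16d, and 844 higher and 747 lower at PN7d than at PN1d. For the change up to PN1d minus the first-week change it gave 636 positive and 661 negative calls, and the liver covariate gave 783 and 793. A filter at the upper quartile, which tests 5471 genes, gave 1942 higher and 2025 lower at PN7d than at E16d. It also gave 1436 higher at PN7d than at PN1d and 906 negative calls of that difference. Deviations of arrays with the same replicate number were correlated between -0.23 and 0.22 (median 0.056, over 0.1 in 4 of 15 pairs). For arrays with different numbers the median was -0.025. These values cannot show whether the numbers pair arrays, and the labels do not say. With a replicate block 2034 genes were higher and 2416 lower at PN1d than at E16d, and no call of a member changed. The normexp correction moved 3 member folds over E16d by more than 1.5 times: G6pc to 28.5 at PN1d and 31.9 at PN7d, and Pck1 to 19.4 at PN7d. Low signals limit Pck2 and, at E16d, the folds of G6pc and Pck1, whose values lie just above the line for a dim probe.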
